A study of Mus musculus with 2 samples.

Results

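MHC class II molecules carry peptides from ingested proteins to the cell surface, where CD4 T cells read them. The genes described here are the chains of these molecules in the mouse, the chains that load peptide onto them, the invariant chain Cd74 and the transactivator Ciita. They were chosen by name, 8 genes in all, and 7 of the 8 were among the 10402 gene symbols with expression values. Ciita was not among them, and no level is given for it. The samples were mouse peritoneal macrophages induced for 3 days with an agent given only as ThG, and not activated, with library names ending in lps-. There was 1 library from ECM1-deficient mice and 1 from ECM1-sufficient mice. ECM1, extracellular matrix protein 1, is a secreted glycoprotein. The labels used here give no strain, age, sex or number of mice per library, and no detail of the Ecm1 allele.

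An alpha and a beta chain pair in the endoplasmic reticulum and bind the invariant chain, which fills the peptide groove and guides the complex to endosomes. There, proteases trim the invariant chain to a short fragment, and the heterodimer H2-DM exchanges that fragment for peptide. Transcription of the class II chains and full expression of Cd74 depend on CIITA, a coactivator that binds no DNA itself and is held at a conserved promoter module of X and Y boxes by the RFX, CREB and NF-Y proteins. Macrophages make little class II at rest and more when interferon gamma induces Ciita, whereas B cells and dendritic cells make it constitutively.

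The promoter module could be shown for 4 of the members, and the sequences are given because this module is the known control element of class II genes. Upstream sequence was found in the RefSeq promoter table of build GRCm38.p6 for 5 members, H2-Aa, H2-Eb1, H2-DMa, H2-DMb1 and H2-DMb2. The motifs were chosen after these sequences had been read, were searched on both strands and do not overlap one another. The first was TGATTGG, the Y box with its reversed CCAAT core. The second, from the X box, was AACNGATGATGC, read as the 12 bases that end 17 bases before the Y box in H2-DMb1 and H2-DMb2, with N where the genes differ. The third was TGACGTCA, the palindrome bound by CREB. Each sequence below is 80 bases from 5′ to 3′ on the strand of the gene, with the matches in capitals.
H2-Aa, chr17:34287833-34287912, minus strand: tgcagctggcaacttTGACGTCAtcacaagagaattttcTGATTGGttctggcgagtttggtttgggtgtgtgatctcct
H2-Eb1, chr17:34305763-34305842, plus strand: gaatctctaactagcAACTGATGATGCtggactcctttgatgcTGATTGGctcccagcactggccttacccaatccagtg
H2-DMb1, chr17:34153084-34153163, plus strand: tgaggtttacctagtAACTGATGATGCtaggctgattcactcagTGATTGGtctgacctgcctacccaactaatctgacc
H2-DMb2, chr17:34145113-34145192, plus strand: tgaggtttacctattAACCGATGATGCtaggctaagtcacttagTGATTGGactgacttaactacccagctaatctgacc

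In these windows the Y box began 50 bases before the RefSeq start of H2-Aa, 61 before that of H2-Eb1, 63 before that of H2-DMb1 and 92 before that of H2-DMb2. The RefSeq starts of H2-DMb1 and H2-DMb2 lie inside the gene spans of the deposited table given further on, which begin upstream of these windows. The X box motif lay upstream of the Y box in 3 of the 4, with 16 bases between them in H2-Eb1 and 17 in H2-DMb1 and H2-DMb2. H2-Aa did not hold the X box motif. Its match upstream of the Y box was the CREB palindrome, with 16 bases between them. Of 32851 promoters of all genes, searched over the 250 bases before the start, 7.23% held TGATTGG, 1.55% held TGACGTCA and 0.0122%, which is 4 promoters, held AACNGATGATGC. Of those 4 promoters, 3 were those of H2-Eb1, H2-DMb1 and H2-DMb2, the last 2 by the way the motif was read. The X box motif or the CREB palindrome lay within 40 bases of the Y box in 0.0365% of promoters. These belonged to 12 genes, of which 4 were the members shown. Neither of the 2 H2-DMa windows held any of the 3 motifs.

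The 6 genes H2-Aa, H2-Ab1, H2-Eb1, H2-DMa, H2-DMb1 and Cd74 were all expressed in both libraries, and each had 2.47 to 3.34 times as many FPKM in the ECM1-deficient library. FPKM are fragment counts scaled by transcript length and by the mapped fragments of the library, so levels can be compared between genes. Each genotype had a single library, so no test was possible, none of these differences has a replicate check, and the sequencing depth is unknown. Differences below are on the log2(FPKM + 1) scale, ECM1-deficient minus ECM1-sufficient, which understates the change of low genes, and a gene counts as 2-fold higher or lower from a difference of 1 in size. The difference was above 0 for most genes, with a median of 0.61 over the 9032 genes that reached 1 FPKM in either library. The median ratio of the 7329 genes at that level in both libraries was 1.73. A second value is therefore given for each gene, relative to the median gene, after this ratio was divided out evenly over the libraries. Summed over all genes, the FPKM came to 187612 in the ECM1-deficient library and 137135 in the ECM1-sufficient one.

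**Figure D1:**
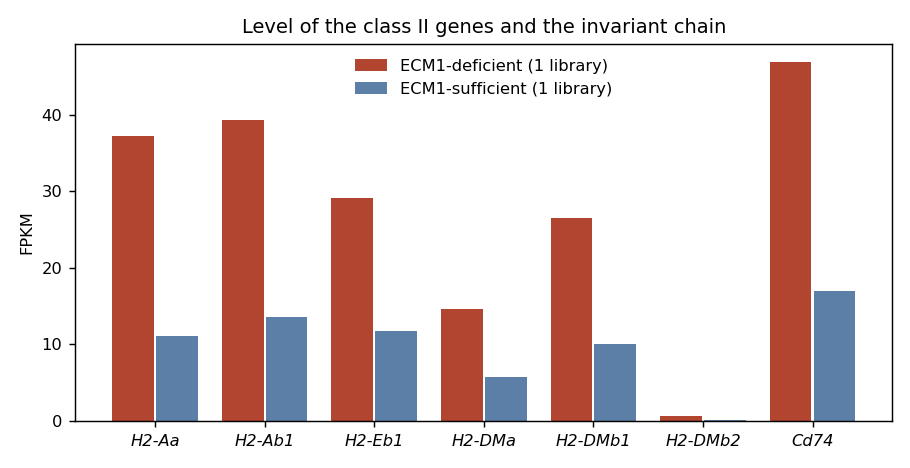
Level in FPKM (vertical axis) of the 7 listed genes in the ECM1-deficient library (left bar of each pair) and the ECM1-sufficient library (right bar), 1 library each. Of the 7 genes, 6 lie between 14.6 and 46.9 FPKM in the ECM1-deficient library and between 5.79 and 16.99 FPKM in the ECM1-sufficient library, and H2-DMb2 is below 1 FPKM in both.

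The classical chains present the peptide at the surface. H2-Aa encodes the alpha chain of the I-A molecule and lies on chromosome 17 from 34282744 to 34287827 (GRCm38). It was at 37.2 FPKM in the ECM1-deficient library and 11.1 FPKM in the ECM1-sufficient library, 3.34-fold higher, with a difference of 1.66 and of 0.91 relative to the median gene. H2-Ab1, the gene of the I-A beta chain on chromosome 17 from 34263209 to 34269418, was at 39.3 FPKM in the ECM1-deficient library and 13.6 FPKM in the ECM1-sufficient library. That is 2.89-fold higher, a difference of 1.46 and of 0.71 relative to the median gene. H2-Eb1 encodes the beta chain of the other classical molecule, I-E, and lies on chromosome 17 from 34305877 to 34316199. It was at 29.1 FPKM in the ECM1-deficient library and 11.8 FPKM in the ECM1-sufficient library, 2.47-fold higher, with differences of 1.24 and 0.49. In GENCODE M21 the gene overlaps the antisense gene Gm20513 over 2194 bases, and whether the authors counted by strand is not given in the sources used here. The alpha chain of I-E, H2-Ea, was not among the genes with values used here.

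The 2 chains of I-A were near 1 to 1 in both libraries. H2-Aa had 0.946 times the FPKM of H2-Ab1 in the ECM1-deficient library and 0.817 times in the ECM1-sufficient library. H2-Eb1 had 0.740 times the FPKM of H2-Ab1 in the ECM1-deficient library and 0.863 times in the ECM1-sufficient library. These ratios are taken within a library, so the shift common to most genes drops out of them. H2-Aa was thus the chain with the larger fold and H2-Eb1 the one with the smaller fold among the 3 classical genes.

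The peptide-loading chains were less abundant than the classical ones in both libraries, and H2-DMb1 came closest to them. H2-DMa, the alpha chain of H2-DM on chromosome 17 from 34135182 to 34139101, was at 14.6 FPKM in the ECM1-deficient library and 5.79 FPKM in the ECM1-sufficient library. That is 2.52-fold higher, with a difference of 1.198 and of 0.49 relative to the median gene. H2-DMb1, one of the genes of the beta chain, lies on chromosome 17 from 34153072 to 34160230. It was at 26.5 FPKM in the ECM1-deficient library and 10.02 FPKM in the ECM1-sufficient library, 2.64-fold higher, with differences of 1.32 and 0.58. H2-DMa had 0.550 times the FPKM of H2-DMb1 in the ECM1-deficient library and 0.578 times in the ECM1-sufficient library, so the balance of both DM chains was nearly the same.

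H2-DMb2 is the second gene of the DM beta chain and lies beside H2-DMb1, on chromosome 17 from 34143307 to 34151553. It was at 0.658 FPKM in the ECM1-deficient library and 0.0767 FPKM in the ECM1-sufficient library, and it is the one listed member below 1 FPKM in both. Its ratio of 8.57 rests on those low values. On the log2(FPKM + 1) scale it differed by 0.62, within 2-fold, and by 0.45 when set against the median gene. Its level was 0.0248 times that of H2-DMb1 in the ECM1-deficient library and 0.00766 times in the ECM1-sufficient library. The transcripts of these 2 genes share sequence. In GENCODE M21, 369 different stretches of 50 bases occur in both, 22.7% of those of H2-DMb1 and 21.2% of those of H2-DMb2. For 1 transcript of each, of 1404 and 1483 bases, the alignment had 1143 identical bases in 1667 columns. That is 68.6% with gap columns counted as not identical, so identity over the bases aligned to each other is higher. How the authors assigned fragments that match both genes is not given in the sources used here, so the H2-DMb2 values are uncertain, and the part of H2-DMb1 fragments in them was not tested.

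Cd74, the invariant chain, was the most abundant member in both libraries. The gene lies outside the MHC, on chromosome 18 from 60803848 to 60812646. It was at 46.9 FPKM in the ECM1-deficient library and 16.99 FPKM in the ECM1-sufficient library, 2.76-fold higher, with a difference of 1.41 and of 0.65 relative to the median gene. At these levels Cd74 was above 92.7% of the genes compared in the ECM1-deficient library and 87.9% in the ECM1-sufficient library. It had 1.19 times the FPKM of H2-Ab1 in the ECM1-deficient library and 1.25 times in the ECM1-sufficient library. The invariant chain and the I-A beta chain thus stood in nearly the same proportion in both.

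All 6 members at 1 FPKM or more were higher in the ECM1-deficient library, as were 90.5% of all genes at that level. Relative to the median gene the 6 were also above 0, where 54.3% of all genes were. H2-DMb2 is not counted here, since the table holds only genes whose higher FPKM is at least 0.5, and it is listed through the ECM1-deficient library alone. Of the 6 members at 1 FPKM or more, 6 were at least 2-fold higher, where 14.8% of all 9032 genes were, as were 22.4% of the 4492 genes at 5 FPKM or more. The median difference of the 7 was 1.32, beside 0.61 for all genes. When taken relative to the median gene their median was 0.58, beside 0.03 for all genes, and none of the 6 passed 2-fold, where 2.45% of all genes did. With FPKM rescaled to equal sums, H2-Aa and H2-Ab1 passed 2-fold, 2 of 6, where 4.22% of all genes did. None of the 6 was 2-fold lower on any of these scales, where 2.17%, 4.77% and 3.28% of all genes were, and none was 4-fold higher, where 1.21% were. The difference of H2-Aa was exceeded by 194 of the 9032 genes, that of Cd74 by 316 and that of H2-DMa, the smallest of the 6, by 602. Relative to the median gene 272 genes lay above H2-Aa and 880, or 9.74%, above H2-DMa. The summed FPKM of the 7 members was 194 in the ECM1-deficient library and 69.4 in the ECM1-sufficient library, which is 0.104% and 0.0506% of all FPKM in the table.

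**Figure D2:**
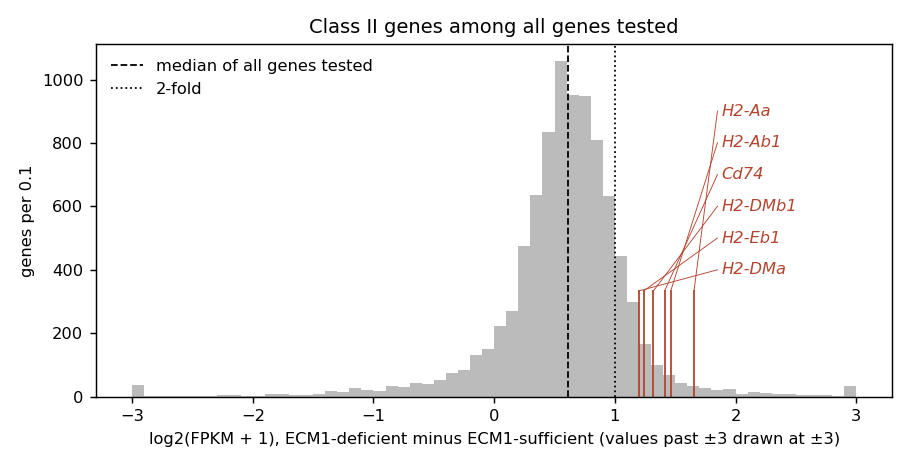
Number of genes (vertical axis, per 0.1) by difference in log2(FPKM + 1), ECM1-deficient minus ECM1-sufficient library (horizontal axis), for the 9032 genes at 1 FPKM or more; red lines mark the 6 members at that level, the dashed line the median of all genes at 0.61 and the dotted line 2-fold. The members lie between 1.198 and 1.66, to the right of the dotted line, and values past 3 in size are drawn at 3.

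The classical chains were set against the loading chains and Cd74, as the group was defined. The median difference of the 3 classical genes was 1.46 and that of H2-DMa, H2-DMb1, H2-DMb2 and Cd74 was 1.26, a gap of 0.20. Taken relative to the median gene the medians were 0.71 and 0.54, a gap of 0.18. The second median is lowered by H2-DMb2, whose difference is small because its FPKM are low. At a minimum of 5 FPKM, which leaves H2-DMb2 out, the gap as deposited was 0.14, and with a pseudocount of 0.1 it was 0.10. The single genes of both sets overlapped: H2-Eb1, a classical gene, had a smaller difference than Cd74 and H2-DMb1. The summed FPKM of the 3 classical genes were 2.89 times as high in the ECM1-deficient library, at 106 against 36.5 FPKM, and those of the 3 DM genes 2.63 times, at 41.7 against 15.9 FPKM. No error can be given for these gaps.

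The 6 members on chromosome 17 stand within 181 kb, with genes of the class I pathway between them. The 4 genes between H2-DMb1 and H2-Ab1 encode the immunoproteasome subunits Psmb9 and Psmb8 and the peptide transporter Tap1 and Tap2. They were 1.37 to 1.99 times as high in the ECM1-deficient library, with a median of -0.02 relative to the median gene, where the 6 class II genes had a median of 0.54. Tap1 was at 1.502 FPKM in the ECM1-deficient library and 1.10 FPKM in the ECM1-sufficient library, and Psmb8 at 28.6 and 16.5 FPKM in that order of libraries. As deposited, their differences of 0.26 to 0.76 lay below those of the other class II genes there but overlapped that of H2-DMb2, 0.62. From 150 kb before to 300 kb after the class II genes, 10 genes on either side were measured. Of these, 2 were at least 2-fold higher, Pbx2 and the zinc transporter gene Slc39a7, beside 14.8% of all genes. Against the median gene only Slc39a7 was 2-fold higher, and the median of the 10 was 0.05.

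**Figure D3:**
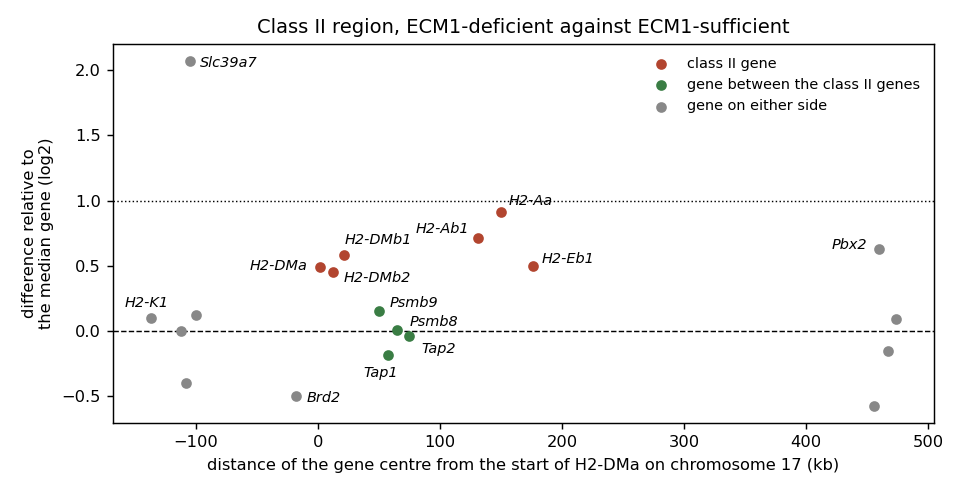
Difference relative to the median gene (vertical axis, log2) by distance of each gene's centre from the start of H2-DMa on chromosome 17 (horizontal axis, kb), ECM1-deficient minus ECM1-sufficient, 1 library each. The 6 class II genes (red) lie between 0.45 and 0.91, the 4 genes between them (green) between -0.19 and 0.15, and the dotted line marks 2-fold.

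Genes of class I presentation, which serves CD8 T cells, differed less. Of 17 at 1 FPKM or more, 4 were at least 2-fold higher and 13 within 2-fold, and 0 were lower, beside the 14.8% higher among all genes. Their median was 0.75, and 0.01 against the median gene. The higher ones were Tapbp, which holds the peptide transporter to class I, at 18.0 FPKM in the ECM1-deficient library and 7.93 in the ECM1-sufficient one, the proteasome subunit gene Psmb10, 2.20-fold, and the chaperone genes Calr, 2.18-fold, and Pdia3, 2.17-fold higher. B2m, the light chain of class I, was at 894 FPKM in the ECM1-deficient library and 560 FPKM in the ECM1-sufficient library, 1.597-fold higher, and H2-D1 at 765 and 493 FPKM, 1.55-fold higher. The class I heavy chain gene H2-K1 had 3.83 times the FPKM of H2-Ab1 in the ECM1-deficient library and 5.98 times in the ECM1-sufficient library. Relative to the median gene 0 of the list were 2-fold higher and 1 was lower, H2-Q7, at 0.674 FPKM in the ECM1-deficient library and 1.80 FPKM in the ECM1-sufficient library. Reads of class I heavy chain genes, which are close copies of one another, may be split between them.

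The factors that bind the X and Y boxes, listed together with Ctcf, stood near the median gene. The 8 genes were Rfx5, Rfxap and Rfxank of the RFX complex, Nfya, Nfyb and Nfyc of NF-Y, Creb1, and Ctcf, which organises chromatin in the region. None was 2-fold higher or lower as deposited or relative to the median gene, and the medians were 0.51 and -0.05. Ctcf and Nfya were the most expressed, Ctcf at 7.002 FPKM in the ECM1-deficient library and 4.36 FPKM in the ECM1-sufficient library and Nfya at 6.64 and 3.56 FPKM in the same order. Rfx5 was at 1.10 FPKM in the ECM1-deficient library and 0.430 FPKM in the ECM1-sufficient library. That is 2.56-fold higher in FPKM, but a difference of 0.56 on the log2(FPKM + 1) scale, which understates the change at such low levels. With a pseudocount of 0.1, 1 gene of this list was at least 2-fold higher, as were 2944 of all genes.

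Among 11 genes of the interferon gamma pathway and of Ciita control, 4 were at least 2-fold higher, beside 14.8% of all genes. Of the rest, 7 were within 2-fold and 0 were lower. The median of the 11 was 0.88, and 0.17 relative to the median gene. Spi1, which encodes the myeloid transcription factor PU.1, was at 28.8 FPKM in the ECM1-deficient library and 6.73 FPKM in the ECM1-sufficient library. It was 4.28-fold higher and the one gene of this list past 2-fold relative to the median gene, at 1.22. Irf8, a factor that partners PU.1, was at 11.3 FPKM in the ECM1-deficient library and 3.55 FPKM in the ECM1-sufficient library. Irf1, which interferon gamma induces and which acts on the Ciita promoter, was at 6.36 and 2.03 FPKM, and Usf1, which binds the same promoter, at 5.87 and 1.69 FPKM, each with the ECM1-deficient library first. The receptor genes Ifngr1, at 43.7 and 22.4 FPKM, and Ifngr2, at 19.3 and 10.6 FPKM, lay near the median gene, at 0.17 and 0.07 relative to it. The levels of the receptor genes are given with the ECM1-deficient library first.

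Of 12 other cytokine receptor and STAT genes that act on class II in macrophages, 4 were at least 2-fold higher, beside 14.8% of all genes. Another 8 were within 2-fold and 0 were lower. The medians of the 12 were 0.81 and, relative to the median gene, 0.19. The higher ones were receptor chains: Il4ra for interleukin-4, at 6.22 FPKM in the ECM1-deficient library and 2.10 FPKM in the ECM1-sufficient library, Il2rg, the common gamma chain, 2.29-fold higher, Csf2ra for GM-CSF, 2.23-fold, and Il10rb, 2.65-fold higher. Csf2rb, the other GM-CSF receptor chain, had the highest level of the list in the ECM1-deficient library, 36.2 FPKM, against 18.5 FPKM in the ECM1-sufficient library, where Stat6 had 19.4 FPKM. Relative to the median gene none was 2-fold higher and Tgfbr2, a receptor chain for TGF-beta, was lower, at 4.64 FPKM in the ECM1-deficient library and 6.49 FPKM in the ECM1-sufficient library.

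Genes for the breakdown of the invariant chain and antigens, a list that also holds the protease inhibitor Cst3 and the reductase Ifi30, ranged widely in level. Ctss, Ctsd, Ctsl and Ctsb were each at 1030 FPKM or more in the ECM1-deficient library and at 576 FPKM or more in the ECM1-sufficient library, while Ctsh, Ctsc and Sppl2a lay within the range of the class II genes. Of the 11 genes, 1 was at least 2-fold higher, 9 were within 2-fold and 1 was lower. Among all genes 14.8% were higher and 2.17% lower by that much. The median of the 11 was 0.84, and 0.05 against the median gene. Ctss, cathepsin S, which makes the last cuts in the invariant chain, had 104 times the FPKM of Cd74 in the ECM1-deficient library and 194 times in the ECM1-sufficient library. It was at 4856 and 3305 FPKM in these libraries, 1.47-fold higher. Ctsd, cathepsin D, was 1.71-fold higher. Ctsc, cathepsin C, at 27.2 FPKM in the ECM1-deficient library and 13.01 FPKM in the ECM1-sufficient library, was the gene past 2-fold. Ctsz, a carboxypeptidase, was at 356 FPKM in the ECM1-deficient library and 1078 FPKM in the ECM1-sufficient library, 3.03-fold lower.

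Transport and turnover of class II showed a few genes apart from the rest. March8 encodes a membrane ubiquitin ligase that can remove class II from the surface in overexpression studies. It was at 5.84 FPKM in the ECM1-deficient library and 0.527 FPKM in the ECM1-sufficient library, 11.1-fold higher, with 1.69 once set against the median gene. March1, its close relative, which ubiquitinates class II in dendritic cells and B cells, was at 0.563 FPKM in the ECM1-deficient library and 0.874 FPKM in the ECM1-sufficient library, below 1 FPKM in both. Cd83, which protects class II from that ubiquitination, was at 15.4 FPKM in the ECM1-deficient library and 4.65 FPKM in the ECM1-sufficient library, 3.31-fold higher, with 0.84 against the median gene. Of the other ubiquitination genes, Ube2d2a was at 33.8 FPKM in the ECM1-deficient library and 22.3 FPKM in the ECM1-sufficient library, and Ube2d3 at 10.01 and 9.29 FPKM. In all, 2 of the 5 turnover genes at 1 FPKM or more were 2-fold higher, March8 and Cd83, beside 14.8% of all genes. March8 is in this count through the ECM1-deficient library alone, and March1 is not in it. The median of the 5 was 0.58, and -0.16 against the median gene.

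Among 15 genes of endosomal transport, 2 were at least 2-fold higher, near the share of 14.8% among all genes, and 13 were within 2-fold. The median of the 15 was 0.84, and 0.06 against the median gene. The higher ones were the tetraspanin gene Cd81, at 11.9 FPKM in the ECM1-deficient library and 3.73 FPKM in the ECM1-sufficient library, and Lamp1, a lysosomal membrane protein, at 175 and 85.4 FPKM. The most abundant were Cd63, a tetraspanin of the class II compartment, at 2197 FPKM in the ECM1-deficient library and 1720 FPKM in the ECM1-sufficient library, and Rab7, a GTPase of late endosomes, at 199 and 107 FPKM. Of 6 co-stimulatory and adhesion genes at 1 FPKM or more, 0 were 2-fold higher or lower, with a median of 0.41, and -0.18 relative to the median gene. Cd86, a ligand of CD28 on T cells, was at 1.61 FPKM in the ECM1-deficient library and 1.03 FPKM in the ECM1-sufficient library. Its relative Cd80 was at 2.23 and 0.673 FPKM in these libraries, 3.32-fold higher in FPKM but within 2-fold on the log2(FPKM + 1) scale. Cd48 and Cd274, which encode an adhesion molecule and PD-L1, were the most expressed, Cd48 at 55.2 FPKM in the ECM1-deficient library and 27.2 FPKM in the ECM1-sufficient library and Cd274 at 22.4 and 15.9 FPKM.

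**Figure D4:**
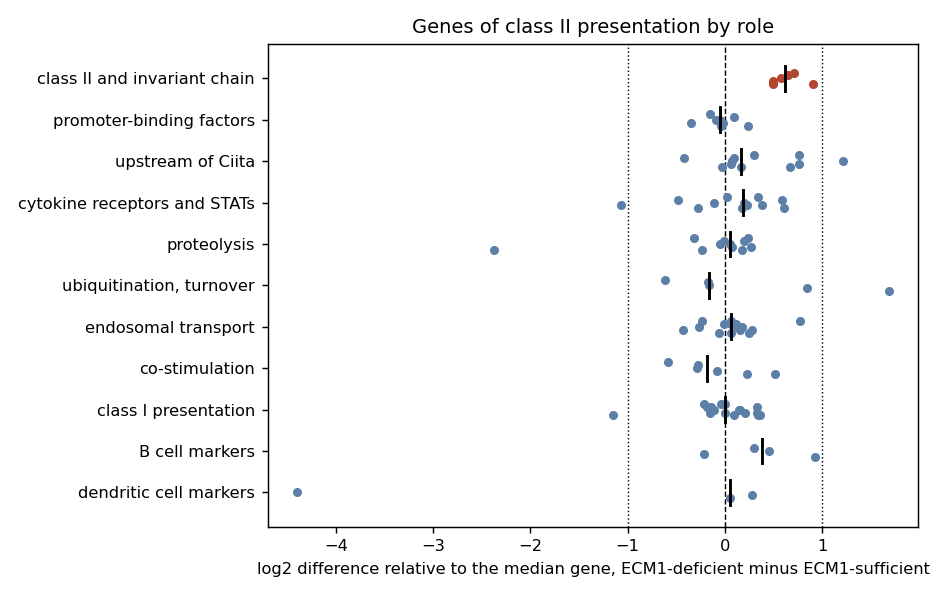
Difference relative to the median gene (horizontal axis, log2, ECM1-deficient minus ECM1-sufficient) of each gene at 1 FPKM or more, in rows by role; black bars are medians of the genes drawn and dotted lines mark 2-fold. The 6 class II and invariant chain genes lie between 0.49 and 0.91, while the medians of the 8 pathway rows lie between -0.18 and 0.19. Single genes of these rows lie above the class II genes, March8 at 1.69 and Spi1 at 1.22. The B cell and dendritic cell marker rows at the bottom have medians of 0.38 and 0.05. Markers of small and large peritoneal macrophages and of macrophages in general are not drawn and had medians of 0.45, 0.37 and 0.21.

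The libraries are of bulk cells, so more cells of a type that carries class II and more class II RNA per cell cannot be told apart. Of 15 B cell markers, 5 had values, among them neither Ms4a1 nor Pax5, and immunoglobulin genes were outside the protein-coding genes of the table. Their FPKM summed to 39.6 in the ECM1-deficient library and 17.5 in the ECM1-sufficient library. Most of this was Cd37, a tetraspanin, at 29.4 FPKM in the ECM1-deficient library and 13.7 FPKM in the ECM1-sufficient library. The B cell receptor signalling chain Cd79a was at 2.43 FPKM in the ECM1-deficient library and 0.378 FPKM in the ECM1-sufficient library. Its partner Cd79b was at 1.49 and 1.13 FPKM, Cd22 at 5.60 and 2.17 FPKM and Spib at 0.635 and 0.132 FPKM, in the same order. So 3 of the 4 B cell markers at 1 FPKM or more were 2-fold higher and 0 lower, beside 14.8% and 2.17% of all genes. Of the 3, Cd79a reached 1 FPKM in the ECM1-deficient library alone. The median of the 4 was 1.06, and 0.38 relative to the median gene, where none was 2-fold higher or lower. The part of B cells in the class II differences was not tested.

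Of 12 dendritic cell markers, 3 had values, and Flt3, Zbtb46, Ccr7, Xcr1 and Clec9a were not among them. Clec10a was at 1.74 FPKM in the ECM1-deficient library and 0.948 FPKM in the ECM1-sufficient library, Batf3 at 1.04 and 0.363 FPKM and Cd24a at 1.596 and 34.8 FPKM, so that the list summed to 4.38 and 36.1 FPKM. None of the 10 T and NK cell markers had a value. Markers of small peritoneal macrophages and monocytes, a class II positive population of the mouse peritoneum, summed to 55.3 FPKM in the ECM1-deficient library and 22.3 FPKM in the ECM1-sufficient library. Of 6 at 1 FPKM or more, 4 were 2-fold higher, Itgax, F13a1, Retnla and Chil3, beside 14.8% of all genes. The other 2, Ccr2 and Mrc1, were within 2-fold, while Fcrls was below 1 FPKM. Retnla and Ccr2 reached 1 FPKM in the ECM1-deficient library alone. The median of the 6 was 1.12, and 0.45 relative to the median gene, where none passed 2-fold. Itgax, the CD11c integrin chain, was at 15.6 FPKM in the ECM1-deficient library and 4.93 FPKM in the ECM1-sufficient library. The part of such cells in the class II differences was not tested.

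Large peritoneal macrophages carry little class II. Their markers summed to 155 FPKM in the ECM1-deficient library and 60.7 FPKM in the ECM1-sufficient library. Of 5 at 1 FPKM or more, 4 were 2-fold higher, Cxcl13, F10, Thbs1 and Saa3, beside 14.8% of all genes, and Gata6 was within 2-fold. Of these, Cxcl13 reached 1 FPKM in the ECM1-deficient library alone. The median of the 5 was 1.09, and 0.37 relative to the median gene, near the medians of the small peritoneal macrophage list. Cxcl13, a chemokine, was at 3.26 FPKM in the ECM1-deficient library and 0.434 FPKM in the ECM1-sufficient library, the one past 2-fold relative to the median gene, while Icam2 was at 0.589 FPKM in the ECM1-deficient library and listed at 0 in the ECM1-sufficient library. Of 12 general macrophage markers, 11 had values. Of these, 5 were 2-fold higher, Adgre1, Csf1r, Fcgr1, Cd14 and Msr1, beside 14.8% of all genes. Another 5 were within 2-fold, among them Itgam and Cd68. The median of the 11 was 0.93, and 0.21 relative to the median gene, where Fcgr1 was the one gene 2-fold higher. Lyz2, lysozyme, was the lower one, at 5.44 FPKM in the ECM1-deficient library and 2774 FPKM in the ECM1-sufficient library. Adgre1, which encodes the macrophage antigen F4/80, had 1.38 times the FPKM of Cd74 in the ECM1-deficient library and 1.82 times in the ECM1-sufficient library. Ecm1 itself was at 1.02 FPKM in the ECM1-deficient library and 5.63 FPKM in the ECM1-sufficient library, 5.51-fold lower, the direction of the genotype labels.

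The genes nearest to a member in level and difference were found by distance in the plane of log2(FPKM + 1) of the 2 libraries, over 8731 other named genes. Nearest to H2-Aa were Trf, Abi1 and Ywhaq, at distances of 0.15 to 0.18. Nearest to H2-Ab1 were Cox20, Rab9 and Pdhb, at 0.04 to 0.06, and to H2-Eb1 Znrd1, R3hdm4 and Alcam, at 0.04 to 0.07. Nearest to Cd74 were Cyc1, Rhog and Ccl9, at 0.06 to 0.13. With 2 libraries, such likeness says only that the genes have similar values in both.

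The authors' deposited gene ontology table gave 12 of 14 background genes for presentation of exogenous peptide on MHC class II, a 4.04-fold enrichment with a false discovery rate of 2.64e-06. Their list held 4944 genes and their background 23313, so the enrichment is not one among the 10402 symbols with values. The list also rests on 1 library per genotype. The 12 included all 7 listed members, H2-DMb2 among them, with Ifi30, Fcer1g, Fcgr2b, Traf6 and Unc93b1. By false discovery rate this term was number 706 of 2592 in the authors' deposited table. Of 5 class II terms in the authors' deposited table it had the largest enrichment, and the broader presentation terms, with 16 of 20 and 15 of 19 genes, had 3.77-fold and 3.72-fold. The authors' deposited table also held MHC class II biosynthetic process, with 7 of 13 genes and a false discovery rate of 2.43e-02, and its regulation, with 6 of 12 genes and 5.68e-02, and these named none of the members. All 4183 genes of that table with FPKM were higher in the ECM1-deficient library, by at least 1.5-fold in FPKM + 1, and 53.7% of all genes compared here were higher by that much.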

How the data were processed

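Per the labels' protocols, polyadenylated RNA of peritoneal macrophages was sequenced in stranded dUTP libraries, 1 per genotype. The submitters' processing notes name HISAT2, StringTie 1.2.3 and mm9. Positions in the deposited table matched GENCODE M21 on GRCm38: of 10403 identifiers 10384 were in it, all 10384 overlapped the same gene and 8060 had identical ends. The deposited values used were the authors' linear FPKM. The table also held the authors' log2(FPKM + 1), their log2 fold change and fold ratio, which run as ECM1-sufficient over ECM1-deficient, and p-values and q-values that were all 1 in the deposited table. The higher FPKM of every gene was at least 0.500. The authors' deposited gene ontology table gave numbers of genes, a fold ratio of enrichment and a false discovery rate. No read counts were used, and depth is unknown.

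Here rows of 1 symbol were summed, 1 was added as pseudocount, and genes under 1 FPKM in both libraries were left out of counts, but not of the median over the listed members. Rescaling to equal sums used the geometric mean of both sums. Python 3.11.15, pandas 2.3.3 and Biopython 1.88 were used, and the calculation was tested on simulated data. The members and lists were chosen with earlier results of these data known. Named were all members, the pathway genes past 2-fold on either scale or among the 2 highest of their list, measured cell type markers and the 3 genes nearest to 4 members; other genes in the text are examples of their list, and some genes of the lists are not reported here. Alternatives were pseudocounts of 0.1 and 5, no minimum, a minimum of 5 FPKM, both rescalings, the highest row per symbol, and thresholds of 1.5-fold and 4-fold.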

Additional observations from a re-analysis of the deposited data

How the results depend on the processing

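With 1 library per genotype no setting gives an error. The number of members at least 2-fold higher, 6 of 6, became 0 after division by the median ratio, 2 with FPKM rescaled to the same sum and 0 at the 4-fold threshold, and lay between 5 and 6 elsewhere. The median difference of the members, 1.32, was 1.46 with a pseudocount of 0.1, 1.07 with 5, 1.37 at a minimum of 5 FPKM, 0.58 after division by the median ratio and 0.90 with equal sums. The gap between classical and loading genes, 0.20, was 0.10, 0.29, 0.14, 0.18 and 0.19 under the same settings in that order. All genes at least 2-fold higher, 1337, numbered 2944 and 286 with pseudocounts of 0.1 and 5, 221 after division by the median ratio, 381 with equal sums, 4849 at 1.5-fold and 109 at 4-fold. All genes at least 2-fold lower, 196, numbered 89 with a pseudocount of 5, 122 at a minimum of 5 FPKM, 431 after division by the median ratio, 296 with equal sums, 332 at 1.5-fold and 72 at 4-fold. No member's difference changed sign under any setting. Of 62 values of single members, 17 no longer passed 2-fold or the threshold in use and 2, both of H2-DMb2, newly passed it.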

Other observations

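Slc39a7, a zinc transporter of the endoplasmic reticulum and Golgi, lies on the class I side of the class II genes and was at 24.6 FPKM in the ECM1-deficient library and 2.82 FPKM in the ECM1-sufficient library, 8.73-fold higher. Its neighbour H2-Ke6, a dehydrogenase gene, was at 13.8 FPKM in the ECM1-deficient library and 10.8 FPKM in the ECM1-sufficient library, and Ring1, a Polycomb subunit, at 2.79 and 1.62 FPKM. The difference of Slc39a7, 2.07 relative to the median gene, was therefore not shared by the genes beside it. Pbx2, on the other side, was at 3.96 FPKM in the ECM1-deficient library and 1.22 FPKM in the ECM1-sufficient library, and its neighbour Gpsm3 at 32.6 and 28.5 FPKM.

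Of the 12 genes whose promoter held the X box motif or the CREB palindrome near a Y box, 5 were measured genes outside the class II group. Their differences ran from 0.11 to 0.88, and Prkar1a, a subunit of protein kinase A, was the most expressed, at 92.0 FPKM in the ECM1-deficient library and 49.7 FPKM in the ECM1-sufficient library.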
